A study of Sus scrofa with 599 samples.

Results

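The Toll-like receptors and their LPS co-receptors were followed as 10 genes of the protein-coding gene (PCG) table: CD14, LY96, TLR4, TLR1, TLR2, TLR6, TLR5, TLR3, TLR9 and CD180. They were taken by gene symbol from the 21280 PCGs in the table, and all 10 were found. No measured value entered the choice as a rule, but earlier results of these data were known. Their expression was read from RNA-seq and the A-B index of the bin holding each gene's start from 240 Hi-C samples. The samples were adipose tissues (ATs) of female Bama miniature pigs, 2 years old at the start, with no genetic modification named. Pigs of the normal condition (NC) stayed on a normal diet, weight-gain (WG) pigs received a high-fat diet for 22 weeks, and weight-loss (WL) pigs were drawn at random from the animals fed that diet and then held for 12 weeks on 10% of the calories that the normal diet gave. The WL pigs were therefore 12 weeks older than the WG pigs at sampling, and time cannot be told apart from restriction. Of the ATs, the greater omentum (GOM), the mesenteric adipose (MAD) and the retroperitoneal adipose (RAD) are visceral, and the upper layer of backfat (ULB) is subcutaneous. In the order GOM, MAD, RAD and ULB, RNA-seq covered 9, 12, 12 and 5 NC samples, 45, 36, 39 and 38 WG samples, and 10 WL samples of each AT. Hi-C covered the same numbers in NC and WL and 46, 37, 40 and 39 samples in WG.

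Toll-like receptors bind conserved molecules of microbes and pass the signal through the adaptors MyD88 or TRIF to NF-kB, MAP kinases and interferon regulatory factors. Lipopolysaccharide (LPS) of Gram-negative bacteria is passed by LPS-binding protein to CD14, and CD14 hands it to MD-2, the product of LY96, which sits on the outer part of TLR4. In fat, these receptors are carried mostly by macrophages and other immune cells, though adipocytes and their precursors are also known to make some of them, and TLR4 has long been studied as a link between dietary fat and tissue inflammation. In bulk tissue, fewer cells of a type and less RNA per cell cannot be told apart.

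Positions are given in Sscrofa11.1. TLR4 (ENSSSCG00000005503) lies on the plus strand at chr1:258044610-258054641 and TLR3 (ENSSSCG00000015801) on the plus strand at chr15:46966262-46977774. The other 8 genes are on the minus strand. They are CD14 (ENSSSCG00000014369) at chr2:142348036-142349686, LY96 (ENSSSCG00000006175) at chr4:61919806-61950712, TLR5 (ENSSSCG00000010885) at chr10:19387666-19410024, TLR9 (ENSSSCG00000011436) at chr13:34353444-34370990, CD180 (ENSSSCG00000016957) at chr16:45571252-45588032 and the chromosome 8 genes TLR2 (ENSSSCG00000009002) at chr8:75416257-75428370, TLR1 (ENSSSCG00000026583) at chr8:30147600-30155454 and TLR6 (ENSSSCG00000026592) at chr8:30159744-30180650. TLR1 and TLR6 are neighbours and near copies: of 2361 stretches of 31 bases in the TLR1 coding sequence, 777 (32.9%) also occur in that of TLR6, so the split of their reads is uncertain.

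The promoters of TLR4, TLR2 and CD14 are shown, since these genes gave 3 of the 4 most abundant transcripts and TLR2 and CD14 held 3 of the 6 expression calls from NC to WG described further on. Each window runs from 250 bases before the RefSeq gene start to 50 bases after it, 5′ to 3′ on the strand of the gene. Capitals mark the core of the site of PU.1, a transcription factor of myeloid and B cells, searched as GAGGAA on both strands.
TLR4 promoter, chr1:258044360-258044659, plus strand: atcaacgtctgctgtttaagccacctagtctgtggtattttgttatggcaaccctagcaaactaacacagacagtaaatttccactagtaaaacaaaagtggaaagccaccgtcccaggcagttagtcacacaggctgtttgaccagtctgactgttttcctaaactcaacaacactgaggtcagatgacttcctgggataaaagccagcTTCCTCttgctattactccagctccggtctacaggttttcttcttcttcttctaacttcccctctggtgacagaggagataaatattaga
TLR2 promoter, chr8:75428321-75428620, minus strand: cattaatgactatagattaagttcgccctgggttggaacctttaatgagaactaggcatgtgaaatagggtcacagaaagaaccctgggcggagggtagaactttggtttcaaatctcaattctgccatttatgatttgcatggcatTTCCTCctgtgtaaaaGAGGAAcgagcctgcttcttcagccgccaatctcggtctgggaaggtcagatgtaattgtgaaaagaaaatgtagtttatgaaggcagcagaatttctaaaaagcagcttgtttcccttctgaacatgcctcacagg
CD14 promoter, chr2:142349637-142349936, minus strand: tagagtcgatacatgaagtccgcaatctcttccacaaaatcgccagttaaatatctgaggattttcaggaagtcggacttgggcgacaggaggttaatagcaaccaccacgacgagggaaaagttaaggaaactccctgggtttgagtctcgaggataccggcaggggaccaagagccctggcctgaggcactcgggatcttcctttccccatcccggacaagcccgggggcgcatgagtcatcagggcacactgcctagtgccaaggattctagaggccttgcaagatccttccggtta
The PU.1 core occurred in 5 of 9 promoters, once in those of TLR4, TLR1 and CD180 and 2 times in those of TLR2 and TLR6, against 25.9% of 19531 pig promoters of the same length. The CD14 window had none of these letters but held the AP-1 site TGAGTCA starting 15 bases before the gene start, and 6.06% of all promoters held a TGANTCA match. These are matches of letters and not sites shown to be bound.

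The summed estimated count on PCGs was 3337098 to 22939419 per library with a median of 16791659. In 40 libraries, PCGs held less than 88% of the summed TPM (65.6 to 87.9%, against 88.1 to 96.9% in the others). These libraries were spread unevenly, with 7 of 9 NC GOM, 2 of 12 NC MAD, 6 of 12 NC RAD and 2 of 5 NC ULB samples, 6 WG samples in all, and 6, 6, 2 and 3 of the 10 WL samples of GOM, MAD, RAD and ULB. WG GOM replicate 35 had the lowest count and stood apart for several of the genes: LY96 was at 0 and CD14 at 110 TPM there, while the other 44 WG GOM samples had 58.9 to 262 TPM of LY96 and 10.8 to 48.0 TPM of CD14. All 6 adipocyte markers (ADIPOQ, PLIN1, LEP, FABP4, LIPE and CIDEC) exceeded 0.5 TPM on average in all 12 groups, and their summed TPM ranged from a mean of 6948 in NC GOM to 22248 in WL ULB.

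Over all RNA-seq samples, LY96 was the most abundant of the 10 transcripts, with a median of 96.4 TPM (0 to 262), followed by TLR4 at 38.4 TPM (5.23 to 81.3) and TLR2 at 21.7 TPM (5.12 to 52.6). The medians of CD14, TLR1 and TLR3 were 19.9, 15.1 and 12.4 TPM. Those of TLR5, TLR6 and CD180 were 7.01, 5.75 and 2.82 TPM, and TLR9 was near the detection limit at 0.432 TPM, above 0.5 TPM in 101 samples. Group means spread the most for CD180, with a ratio of 4.83 between the highest and the lowest group, and the least for TLR5, with a ratio of 1.97. The neighbours in the order of medians overlapped across samples in each case.

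**Figure D1:**
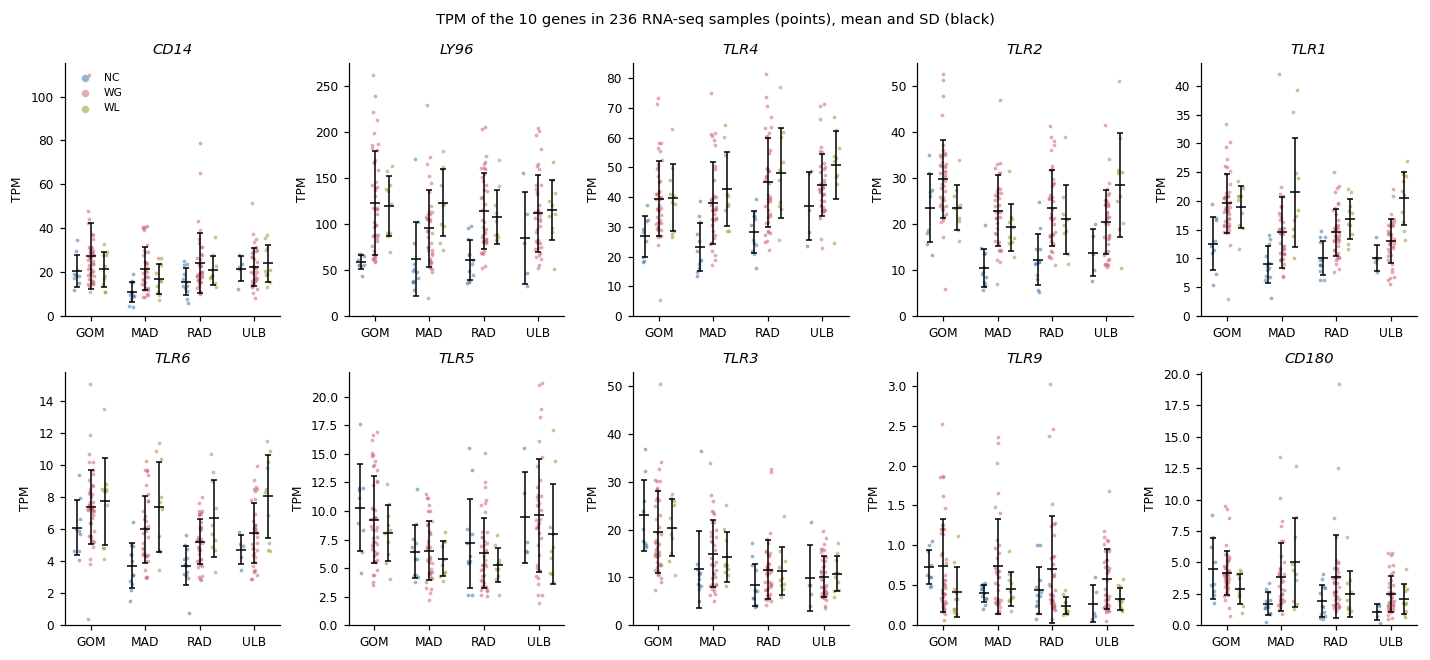
TPM (linear axis, 1 panel per gene) in each RNA-seq sample by AT and diet, with group mean ± SD in black. The LY96 samples of NC GOM sit between 43.6 and 67.6 TPM, and the single WG GOM sample at 0 is replicate 35.

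A gene was called differentially expressed where edgeR's quasi-likelihood test gave an adjusted p below 0.05 with a fold above 1.5. The test was fitted on every PCG that exceeded 0.5 TPM in 80% or more of a group's samples. Log2 fold changes are those of normalised counts, given as the later diet less the earlier or as the second AT less the first. TLR9 did not pass this filter in any comparison, so 9 genes were tested. From NC to WG, 6 of 36 tests were called and all 6 were higher in WG. In GOM this was 1 of 9 genes, where 26.7% of all tested PCGs were called in either direction and 12.2% higher. MAD had 3 of 9 (10.7% and 5.38% of all), RAD 2 of 9 (16.7% and 7.10%) and ULB 0 of 9 (2.38% and 0.507%). In ULB, 1 gene had an unadjusted p below 0.05 in edgeR's quasi-likelihood test, and DESeq2 and edgeR's exact test also called none of the 9. The median log2 fold changes of the 9 genes were 0.06 (GOM), 0.51 (MAD), 0.36 (RAD) and 0.15 (ULB), and those of all tested PCGs were between -0.01 and 0.01. In the TPM scale the median PCG was itself 0.15 to 0.29 higher in WG than in NC and 0.20 to 0.30 higher in WL than in NC (log2), so differences of mean TPM are larger than the log2 fold changes of normalised counts.

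From NC to WL, 11 of 36 tests were called, 8 of them higher in WL and 3 lower. MAD held 6 of them, all higher, of 9 genes tested (33.1% of all PCGs were called there). GOM held 3 of 9 (36.1% of all), RAD 1 of 9 (26.7%) and ULB 1 of 9 (14.8%). The median log2 fold changes of the 9 genes were -0.28 (GOM), 0.67 (MAD), 0.46 (RAD) and 0.21 (ULB). NC samples enter both comparisons, and WG samples enter the next. From WG to WL none of the 36 tests was called, where 5.26% (GOM), 17.4% (MAD), 6.37% (RAD) and 8.12% (ULB) of all PCGs were. Of these 36 tests, 7 had an unadjusted p below 0.05 in edgeR's quasi-likelihood test, 8 in DESeq2 and 7 in edgeR's exact test, and neither of the other tools called any.

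CD14, the co-receptor that takes LPS from LPS-binding protein, was lowest in MAD of NC pigs. Its TPM there was 4.23 to 19.2 with a median of 10.1, against 8.61 to 41.1 with a median of 19.8 in WG MAD and 7.30 to 26.6 with a median of 15.8 in WL MAD. The groups overlapped, but the WG median lay above the highest NC MAD sample. CD14 rose in MAD from NC to WG, by 0.75 on the log2 scale (SE 0.19, a fold of 1.68 with a 95% interval of 1.29 to 2.18, adjusted p = 0.00546). In the other ATs, the CD14 medians of NC, WG and WL were 18.5, 25.5 and 20.6 TPM in GOM, 14.6, 19.9 and 18.5 TPM in RAD, and 22.3, 21.1 and 20.6 TPM in ULB, and none of these differences was called. The 5 NC ULB samples had 12.2, 21.3, 22.3, 23.8 and 27.6 TPM of CD14, within the WG ULB range of 7.99 to 51.6 TPM. The lowest of them lay below the WL ULB range of 13.4 to 36.7 TPM.

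LY96 encodes MD-2, the part of the receptor that binds the lipid of LPS. In GOM its TPM was 43.6 to 67.6 (median 56.0) in NC, 0 to 262 (median 116) in WG and 69.3 to 163 (median 129) in WL. No WL GOM sample fell into the NC range. The WG range spanned it only through replicate 35, and the other 44 WG GOM samples, at 58.9 to 262 TPM, met only its upper part. LY96 rose in GOM from NC to WG by 0.81 (log2, SE 0.29, fold 1.76 with a 95% interval of 1.18 to 2.62, adjusted p = 0.0245), and by 0.87 without WG GOM replicate 35 (adjusted p = 0.00355). It also rose in GOM from NC to WL, by 0.74 (log2, SE 0.16, adjusted p = 6.12e-04).

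In RAD, LY96 stood at 35.5 to 98.1 TPM (median 59.1) in NC and at 52.1 to 206 TPM (median 102) in WG, a log2 fold change of 0.70 (SE 0.19, adjusted p = 0.00304). In MAD it stood at 27.9 to 171 TPM (median 48.7) in NC and at 71.5 to 179 TPM (median 122) in WL, a log2 fold change of 0.83 (SE 0.26, adjusted p = 0.0133). The groups overlapped in both. The 5 NC ULB samples had 32.4, 46.5, 79.3, 111 and 155 TPM of LY96, a range that covers most of the WG ULB samples (51.7 to 205 TPM), and ULB had no call. Among libraries with a PCG share of at least 88%, LY96 had no call from NC to WG: its log2 fold change was 1.05 in GOM (adjusted p = 0.195, with 2 NC samples left) and 0.46 in RAD (adjusted p = 0.259). The part of the PCG share in these results was not tested beyond these values.

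TLR4, the signalling receptor of the complex, was called once, from NC to WL in MAD. Its TPM in MAD was 13.4 to 38.7 (median 20.3) in NC, 17.3 to 75 (median 35.8) in WG and 28.6 to 64.4 (median 39.1) in WL. The NC and WL ranges met between 28.6 and 38.7 TPM. The log2 fold change from NC to WL was 0.67 (SE 0.18, fold 1.59 with a 95% interval of 1.25 to 2.02, adjusted p = 0.00444). From NC to WG, TLR4 passed the adjusted p but not the fold in MAD (log2 0.51, adjusted p = 0.0252) and in RAD (log2 0.43, adjusted p = 0.0167). TLR4 medians in GOM were 28.3, 37.3 and 39.4 TPM in NC, WG and WL and those in ULB 35.7, 42.8 and 52.6 TPM, with no call in either AT.

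TLR2 pairs with TLR1 to bind triacylated and with TLR6 to bind diacylated bacterial lipopeptides. TLR2 in MAD was 5.61 to 19.7 TPM (median 9.38) in NC, 6.98 to 46.9 TPM (median 22.7) in WG and 12.8 to 31.6 TPM (median 18.3) in WL. In RAD it was 5.12 to 24.8 TPM (median 11.6) in NC and 11 to 41.4 TPM (median 21.5) in WG. The ranges overlapped, but in MAD the WG median lay above the highest NC sample. TLR2 rose from NC to WG in MAD by 0.92 (log2, SE 0.17, fold 1.90 with a 95% interval of 1.51 to 2.39, adjusted p = 1.46e-04) and in RAD by 0.72 (log2, SE 0.18, adjusted p = 0.00151). Among libraries with a PCG share of at least 88% the RAD value was 0.64 (adjusted p = 0.0841) and the MAD call was kept. TLR2 also rose in MAD from NC to WL, by 0.67 (log2, SE 0.18, adjusted p = 0.00464), but by 0.57 without WL MAD replicate 10 (adjusted p = 0.0117), below the fold. The 5 NC ULB samples had 7.56, 10.1, 13.5, 17.4 and 20.1 TPM of TLR2, all inside the WG ULB range of 10.7 to 41.5 TPM or below it, and no call was made in ULB or, where the NC median was already 26 TPM, in GOM. Without WL ULB replicate 3, TLR2 was called from NC to WL in ULB (log2 0.87, adjusted p = 0.0313).

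TLR1 rose from NC to WL in MAD and in ULB. Its TPM in MAD was 3.12 to 14.1 (median 8.46) in NC, 6.81 to 42 (median 14.4) in WG and 10.1 to 39.2 (median 17.9) in WL. In ULB the NC samples had 7.70, 9.33, 9.85, 10.0 and 13.8 TPM, while WL ULB had 13.2 to 27 TPM (median 21.4). Only the highest NC ULB sample reached the WL range. The log2 fold change from NC to WL was 1.10 in MAD (SE 0.24, fold 2.15 with a 95% interval of 1.55 to 2.98, adjusted p = 9.74e-04) and 0.73 in ULB (SE 0.20, adjusted p = 0.0163). TLR1 was also the only one of the 9 genes with an adjusted p below 0.05 from WG to WL, at 0.56 in MAD (log2, SE 0.20, adjusted p = 0.0260) and 0.53 in ULB (log2, SE 0.16, adjusted p = 0.0135), below the fold of 1.5, and without WL MAD replicate 10 the MAD value passed it (0.59, adjusted p = 0.0254). TLR6 in MAD was 1.51 to 6.48 TPM (median 3.58) in NC and 3.43 to 11.4 TPM (median 7.49) in WL, with overlapping ranges, and rose from NC to WL by 0.81 (log2, SE 0.25, adjusted p = 0.0112).

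TLR5, the receptor of bacterial flagellin, fell from NC to WL in GOM and RAD. Its TPM in GOM was 4.54 to 17.6 (median 11) in NC and 4.08 to 12.4 (median 8.21) in WL, and in RAD 2.62 to 15.5 (median 5.85) in NC and 2.62 to 7.93 (median 5.16) in WL. The WL ranges lay almost wholly within the NC ranges. On the scale of normalised counts TLR5 fell by 0.66 in GOM (log2, SE 0.20, adjusted p = 0.00705) and by 0.73 in RAD (log2, SE 0.23, adjusted p = 0.0140). Its log2 fold changes from NC to WG were between -0.46 and -0.20 in the 4 ATs, and none was called.

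Of the nucleic acid receptors among the followed genes, TLR3 gave no call between diets, and TLR9 did not pass the filter. TLR3, which binds double-stranded RNA in endosomes, had GOM medians of 20.2, 16.9 and 20.8 TPM in NC, WG and WL, and its log2 fold changes from NC to WG ran from -0.53 in GOM (adjusted p = 0.0148, below the fold) to 0.21. TLR9, which binds unmethylated CpG DNA and is known from B cells and dendritic cells, had group means of 0.242 TPM (WL RAD) to 0.745 TPM (WG GOM). With no filter on low genes, TLR9 was called from WG to WL in RAD (log2 -1.52, adjusted p = 0.0121) and from NC to WL in GOM (log2 -1.06, adjusted p = 0.0114) and RAD (log2 -1.09, adjusted p = 0.0231), and between ATs of NC pigs as higher in GOM than in MAD (log2 -0.88, adjusted p = 0.0110) and ULB (log2 -1.47, adjusted p = 0.0349), on a median of 32 estimated counts per sample.

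CD180 is a homolog of TLR4 on B cells and macrophages that sits with MD-1, the product of LY86. Its TPM in MAD was 0.258 to 3.36 (median 1.5) in NC, 0.888 to 13.4 (median 3.0) in WG and 1.32 to 12.7 (median 4.26) in WL, with overlapping ranges. CD180 rose in MAD from NC to WG by 0.93 (log2, SE 0.32, adjusted p = 0.0342) and from NC to WL by 1.35 (log2, SE 0.41, adjusted p = 0.00927). In GOM it fell from NC to WL by 0.91 (log2, SE 0.32, adjusted p = 0.0200), with 1.73 to 8.81 TPM (median 3.28) in NC and 0.936 to 4.42 TPM (median 2.72) in WL. Among libraries with a PCG share of at least 88%, CD180 kept its direction with adjusted p of 0.192 for NC to WL in MAD and 0.0641 in GOM. In GOM, 2 NC and 4 WL samples were left there. The B cell markers were also highest in WL MAD: their summed TPM there had a median of 20.5 and a highest value of 541, with a mean of 116 ± 179 (SD, n = 10), against means of 13.6 to 26.3 in the other groups. The B cell medians of NC GOM and NC MAD, 19.6 and 19.2 TPM, were close to that of WL MAD. T cell markers had a mean of 166 ± 220 TPM in WL MAD and 11.6 to 48.8 TPM elsewhere. Their median in WL MAD was 42.3 TPM (27.6 to 585), below that of 47.2 TPM in WL GOM. The part of these cells in the CD180 result was not tested.

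**Figure D2:**
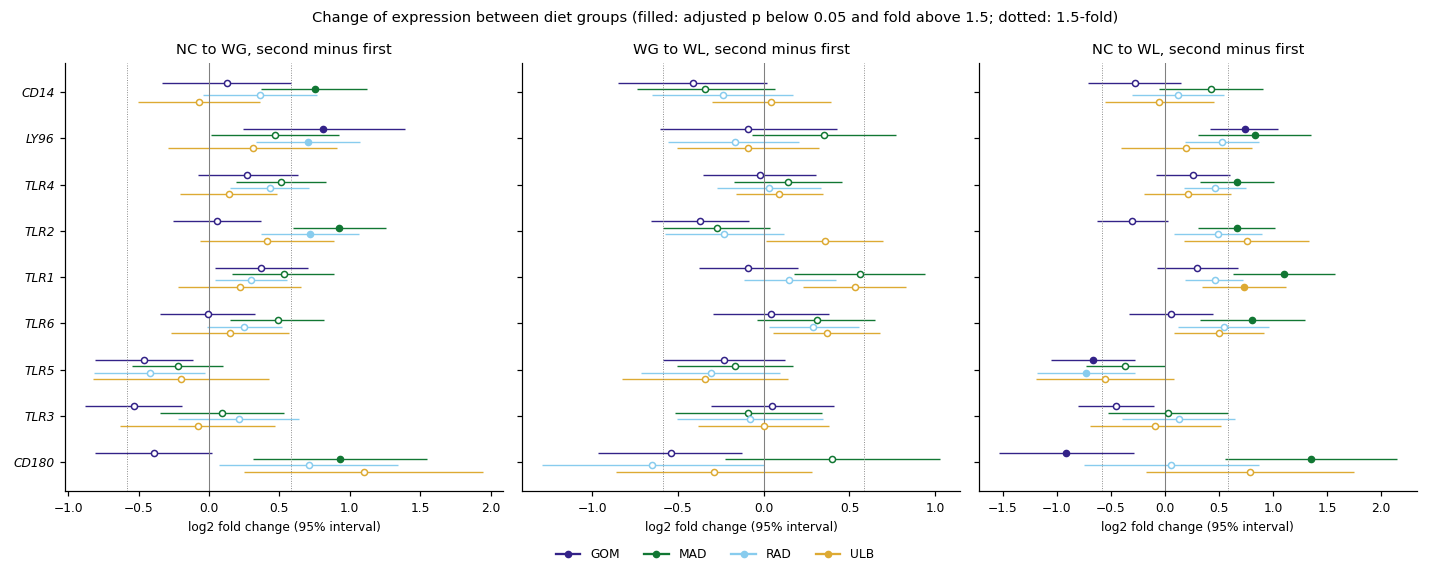
Log2 fold change of normalised counts with its 95% interval for 9 genes in 4 ATs, in 1 panel for each diet comparison, with filled points for calls and dotted lines at the fold of 1.5. The panel from NC to WG has 6 filled points, all above 0, the panel from WG to WL has none, and the panel from NC to WL has 11.

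Macrophage markers were also called between diets. Of the 9 listed (CD68, CD163, MRC1, CSF1R, ADGRE1, ITGAM, AIF1, VSIG4 and MARCO), 8 were in the table. Their summed TPM in MAD ranged from 139 to 452 in NC, 212 to 914 in WG and 235 to 908 in WL, and in RAD from 132 to 540, 230 to 1386 and 278 to 917. In GOM the ranges were 321 to 976, 354 to 1375 and 347 to 800, and in ULB 247 to 550, 207 to 721 and 277 to 945. From NC to WG, 11 of 29 tests of these markers were called higher and none lower, against 6.37% and 7.89% over all PCGs. From NC to WL, 10 of 32 tests of the markers were called higher and 3 lower, against 11.6% and 16.2%. Their part in the changes of the 10 genes was not tested.

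The test of whether the change from NC to WG differed between the 4 ATs was called for 2 of 9 genes, where 8.80% of 15068 PCGs were called. For TLR2 (F = 4.54, adjusted p = 0.0481), the change in ULB was exceeded by 0.51 in MAD and by 0.32 in RAD, while that in GOM differed from it by -0.32 (log2). For CD180 (F = 4.55, adjusted p = 0.0479), the change in GOM differed from that in ULB by -1.44, that in MAD by -0.16 and that in RAD by -0.37 (log2). Both calls lay close to the threshold: without NC ULB replicate 2 neither gene was called, without replicate 5 only 1 was, and among libraries with a PCG share of at least 88% none was. From WG to WL no difference between ATs was called for the 9 genes in this test (6.41% of all PCGs were), though TLR2, TLR1 and CD180 had unadjusted p of 0.0161, 0.0204 and 0.0487. No other tool was run on this test.

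Between ATs of NC pigs, 14 of 54 tests were called, and 13 of these were higher in GOM. From GOM to MAD 6 of 9 genes were called (17.7% of all PCGs), from GOM to RAD 4 (19.5%), from GOM to ULB 3 (25.4%), from MAD to RAD 0 (2.41%), from MAD to ULB 1 (7.73%) and from RAD to ULB 0 (4.32%). From MAD to RAD and from RAD to ULB, 2 and 0 of the 9 genes had an unadjusted p below 0.05 in edgeR's quasi-likelihood test, and DESeq2 and edgeR's exact test called none either. TLR2 was higher in GOM, at 13.2 to 34.9 TPM, than in MAD (log2 -1.22, SE 0.20, adjusted p = 2.09e-04), RAD (log2 -0.93, SE 0.21, adjusted p = 0.00212) and ULB (log2 -0.82, SE 0.27, adjusted p = 0.0291). CD180 was higher in GOM than in MAD (log2 -1.40), RAD (log2 -1.16) and ULB (log2 -2.17, SE 0.49, fold 4.50 with a 95% interval of 2.30 to 8.80, adjusted p = 0.00359). With the replicate number as a block, TLR2 came to -0.38 (adjusted p = 0.286) and CD180 to -1.90 (adjusted p = 0.144) between GOM and ULB, neither of them called. That block rests on only 4 same-number pairs, with correlations of 0.104 or more and a median of 0.128, little above the limit of 0.1. The TLR2 call against ULB was also lost without any of NC ULB replicates 7, 9 and 12 (adjusted p = 0.0624 to 0.0698). The 5 NC ULB samples had 0.162, 0.725, 1.12, 1.53 and 1.65 TPM of CD180 and the 9 NC GOM samples 1.73 to 8.81 TPM, with no overlap.

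TLR3 was called between ATs in all 3 diets. In NC it stood at 16.4 to 36.8 TPM (median 20.2) in GOM, 5.0 to 36.5 TPM (median 10.0) in MAD, 3.69 to 17.1 TPM (median 7.15) in RAD, and at 3.96, 6.50, 8.42, 8.45 and 21.7 TPM in ULB. The medians of the other ATs lay below the lowest GOM sample. The log2 differences from GOM were -0.95 in MAD (adjusted p = 0.0152), -1.41 in RAD (adjusted p = 1.92e-04) and -1.31 in ULB (adjusted p = 0.00349). Of the other genes, CD14 (log2 -0.98), TLR5 (log2 -0.71) and TLR6 (log2 -0.75) were higher in GOM than in MAD, TLR6 was higher in GOM than in RAD (log2 -0.69), and CD14 was higher in ULB than in MAD (log2 0.96, adjusted p = 0.0301), a call lost without any of NC ULB replicates 2, 5 and 7 (adjusted p = 0.0621 to 0.0997). Among NC libraries with a PCG share of at least 88%, 3 of the 54 tests were called, with 2 of 9 GOM and 3 of 5 ULB samples left. LY96, TLR1 and TLR4 had no call between ATs of NC pigs without a block. With the replicate number as a block, TLR4 was called as higher in ULB than in MAD (log2 0.75, adjusted p = 0.0498). There, 3 of 5 same-number pairs had a correlation above 0.1.

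In WG, 7 of 54 tests were called. From GOM to MAD there were 0 (6.27% of all PCGs), from GOM to RAD 1 (11.2%), from GOM to ULB 2 (17.9%), from MAD to RAD 0 (5.40%), from MAD to ULB 2 (14.4%) and from RAD to ULB 2 (9.27%). TLR3 was higher in GOM (7.26 to 50.6 TPM, median 16.9) than in RAD (4.12 to 32.7 TPM, median 11) and ULB (3.65 to 19.7 TPM, median 8.90), with log2 differences of -0.66 (SE 0.13, adjusted p = 1.99e-05) and -0.85 (SE 0.12, adjusted p = 8.83e-09). CD180 was lower in ULB than in GOM (log2 -0.67), MAD (log2 -0.59) and RAD (log2 -0.61), and TLR5 was higher in ULB than in MAD (log2 0.59, adjusted p = 4.32e-04) and RAD (log2 0.61, adjusted p = 6.98e-04). The ranges of these groups overlapped throughout. With the replicate number as a block, the values of TLR5 (log2 0.58, adjusted p = 6.32e-06) and CD180 (log2 -0.57, adjusted p = 0.00252) between MAD and ULB fell just below the fold of 1.5. In the pairs without a call, GOM to MAD and MAD to RAD, 6 and 3 genes had an unadjusted p below 0.05 in edgeR's quasi-likelihood test, and neither DESeq2 nor edgeR's exact test called any.

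In WL, 4 of 54 tests were called: 0 from GOM to MAD (5.97% of all PCGs), 2 from GOM to RAD (12.2%), 1 from GOM to ULB (16%), 0 from MAD to RAD (7.31%), 1 from MAD to ULB (14.4%) and 0 from RAD to ULB (4.34%). TLR3 was again higher in GOM than in RAD (log2 -0.83, SE 0.22, adjusted p = 0.00863) and ULB (log2 -0.94, SE 0.21, adjusted p = 0.00148). TLR5 was higher in GOM than in RAD (log2 -0.59, adjusted p = 0.0180, but -0.58 with the replicate number as a block, below the fold). CD180 was higher in MAD than in ULB (log2 -1.31, adjusted p = 0.0302). With the replicate number as a block, CD180 was also called between MAD and RAD (log2 -0.98, adjusted p = 0.0133), where the value without it was -1.05 (adjusted p = 0.121), or -1.39 (adjusted p = 0.0429) when WL RAD replicate 6 was left out. TLR2 was called as higher in ULB than in MAD when WL MAD replicate 10 (log2 0.60, adjusted p = 0.0289) or WL ULB replicate 3 (log2 0.60, adjusted p = 0.0184) was left out. In the other pairs without a call, GOM to MAD and RAD to ULB, and in MAD to RAD, 3, 1 and 1 genes had an unadjusted p below 0.05 in edgeR's quasi-likelihood test, and DESeq2 and edgeR's exact test called none. Among WL libraries with a PCG share of at least 88%, none of the 54 tests was called, with 4 GOM and 4 MAD samples left. Without a block, TLR4 had no call between ATs in any of the 3 diets, with log2 differences from -0.27 to 0.67.

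Other cells also differed between these ATs. In NC, the macrophage markers summed to 598 TPM in GOM on average (321 to 976) and to 268, 329 and 394 TPM in MAD, RAD and ULB, and the 3 granulocyte markers in the table to 298 TPM in GOM and to 135, 136 and 154 TPM. Between ATs of NC pigs, 18 of 45 tests of macrophage markers were called lower in the second AT and 1 higher, against 6.47% lower and 6.50% higher over all PCGs. T cell markers summed to 32 TPM in GOM on average and to 16.2, 14.5 and 11.6 TPM in MAD, RAD and ULB, with 8 of 24 tests called lower in the second AT and none higher. Dendritic cell markers summed to 6.63 TPM in GOM and to 4.41, 3.87 and 3.42 TPM, with 5 of 17 lower and none higher. B cell markers summed to 21.6, 19.1, 16.7 and 14.9 TPM, with no call in 6 tests. WT1, the only one of 4 listed mesothelial markers in the table, averaged 48.9 to 76.3 TPM in the GOM groups, 5.70 to 9.64 TPM in MAD and RAD and 0.248 to 0.860 TPM in ULB. The summed adipocyte markers were lowest in NC GOM. The part of these cells in the AT differences was not tested.

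**Figure D3:**
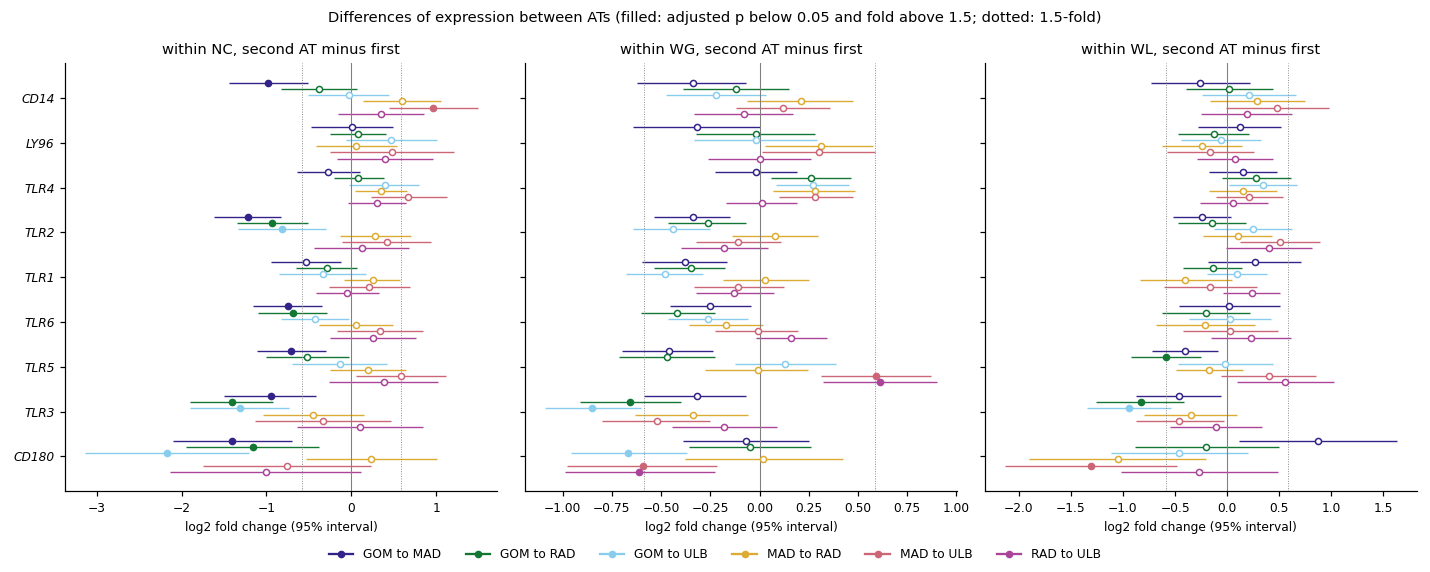
Log2 difference of normalised counts between ATs with its 95% interval for 9 genes and 6 AT pairs, in 1 panel per diet, with filled points for calls. The NC panel holds 14 filled points, the WG panel 7 and the WL panel 4, and those of TLR3 lie below 0 in all 3 panels.

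The A-B index gives the compartment of each 20-kb bin, with positive values in the active A and negative values in the inactive B compartment, and has no unit. It was tested in all 113298 bins with limma, with calls at an adjusted p below 0.05 and a difference above 0.75. The start bins of 8 genes were positive in all 240 samples, with overall medians from 2.86 for LY96 and 2.92 for TLR1 to 5.37 for TLR9 and 5.62 for CD14. TLR4 and TLR5 were the exceptions. The TLR4 bin had a median of 1.15 (-2.82 to 3.31) and was positive in 196 of 240 samples, and the TLR5 bin had a median of -5.93 (-10.17 to 8.53).

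TLR4 had the lowest index in GOM in each diet. In NC, GOM samples had -1.07 to 0.95 (median -0.38), MAD samples 0.87 to 2.69 (median 1.33) and RAD samples 1.19 to 3.31 (median 1.84), and the 5 ULB samples had 0.99, 1.32, 2.02, 2.30 and 2.36. The bin was thus positive in 3 of 9 NC GOM samples and in every NC sample of the other ATs, and GOM did not overlap with RAD or ULB. The differences from GOM were 1.82 in MAD (SE 0.27, adjusted p = 1.96e-04), 2.10 in RAD (SE 0.26, adjusted p = 2.54e-06) and 2.04 in ULB (SE 0.32, adjusted p = 3.98e-04).

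In WG, TLR4 was positive in 21 of 46 GOM samples (45.7%), with an index of -1.76 to 1.72 and a mean of -0.02 ± 0.76 (SD), against means of 1.24 ± 0.81 in MAD (n = 37), 2.0 ± 0.66 in RAD (n = 40) and 1.41 ± 0.79 in ULB (n = 39). The differences from GOM were 1.26, 2.02 and 1.43 (SE 0.17, 0.15 and 0.16, adjusted p = 1.69e-09, 1.91e-20 and 2.05e-12), and RAD exceeded MAD by 0.76 (adjusted p = 5.24e-04). In WL, TLR4 was positive in 1 of 10 GOM samples, with a mean of -0.78 ± 0.89, and the differences from GOM were 1.6 in MAD (adjusted p = 4.49e-04), 2.33 in RAD (adjusted p = 9.74e-06) and 1.93 in ULB (adjusted p = 1.01e-04). The ranges of GOM and the other ATs overlapped in WG and WL. From WG to WL the GOM index of TLR4 fell by 0.76 (SE 0.27, adjusted p = 0.0385), and without WL GOM replicate 9 the difference was -0.53 (adjusted p = 0.142), which ends the call. The differences of the TLR4 bin from NC to WL were -0.54 for GOM, -0.75 for MAD (adjusted p = 0.0263, just short of the threshold of 0.75), -0.31 for RAD and -0.64 for ULB, with no call. The MAD value was called without WL MAD replicate 10 (-0.86, adjusted p = 0.00780) and the ULB value without WL ULB replicate 4 (-0.85, adjusted p = 0.0306), and after quantile normalization of the index across samples it was lower in WL in MAD (-1.10, adjusted p = 0.00294) and ULB (-1.08, adjusted p = 0.0425). TLR4 expression, in contrast to its index, was not called between GOM and another AT in any diet, and its TPM ranges in GOM overlapped with those of the other ATs.

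**Figure D4:**
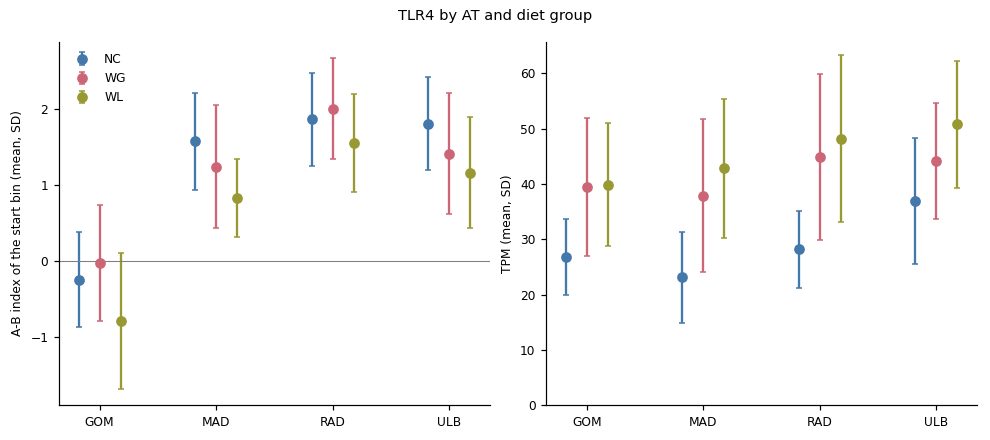
Mean ± SD of the A-B index and of TPM of TLR4 by AT and diet. The mean index in GOM is -0.24 in NC, -0.02 in WG and -0.78 in WL, below the 3 other ATs in each diet, while mean TPM runs from 23.1 in NC MAD to 50.8 in WL ULB.

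Index calls of the 10 genes between ATs numbered 6 of 60 in NC. From GOM to MAD 1 was called (6.69% of 15314 bins with PCG starts), from GOM to RAD 1 (14.3%), from GOM to ULB 2 (16.4%), from MAD to RAD 0 (3.31%), from MAD to ULB 1 (10.5%) and from RAD to ULB 1 (10.9%). Besides TLR4 these were TLR3, lower in ULB than in GOM by 0.83 (adjusted p = 0.0370), and CD14, higher in ULB than in MAD by 1.02 (adjusted p = 0.0475) and than in RAD by 1.04 (adjusted p = 0.0160). The TLR3 call was lost without NC GOM replicate 1 (-0.74, adjusted p = 0.0608) or any of NC ULB replicates 2, 5, 9 and 12 (adjusted p = 0.0538 to 0.0907), the CD14 call against MAD without any of replicates 2, 5, 7 and 12 (adjusted p = 0.0910 to 0.138) and that against RAD without replicate 7 (adjusted p = 0.0652). In WG, 5 of 60 were called, 1 each from GOM to MAD (4.22% of bins), GOM to RAD (9.07%), GOM to ULB (13.9%), MAD to RAD (1.07%) and MAD to ULB (7.61%), and 0 from RAD to ULB (6.80%). In WL, 5 of 60 were called, 1 from GOM to MAD (11.2%), 2 from GOM to RAD (15.4%), 1 from GOM to ULB (13.6%), 0 from MAD to RAD (0.581%), 1 from MAD to ULB (6.51%) and 0 from RAD to ULB (5.75%). The calls of WL other than TLR4 were LY96, higher in RAD than in GOM by 0.82 (adjusted p = 0.00624), and TLR2, higher in ULB than in MAD by 0.80 (adjusted p = 0.00742). The TLR2 call rested on WL MAD replicate 10, since without it the difference was 0.67 (adjusted p = 0.00852), below the threshold. In the pairs without a call, MAD to RAD in NC, RAD to ULB in WG, and MAD to RAD and RAD to ULB in WL, limma gave 1, 4, 1 and 2 unadjusted p below 0.05, and no other tool was run on the index.

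Between diets, 7 of 40 index tests were called from NC to WG, 10 of 40 from NC to WL and 1 of 40, TLR4 in GOM, from WG to WL. From NC to WG, 1 of 10 bins was called in GOM (4.83% of bins with PCG starts), 2 in MAD (9.40%), 3 in RAD (8.35%) and 1 in ULB (5.82%). From NC to WL, GOM had 3 calls (15.9%), MAD 3 (19.5%), RAD 4 (24.5%) and ULB 0 (13.2%). From WG to WL it was 1 in GOM (2.32%) and 0 in MAD (1.07%), RAD (4.53%) and ULB (5.79%). Where none was called, limma gave an unadjusted p below 0.05 for 2 genes in ULB from NC to WL, 2 in RAD from WG to WL and 0 in MAD and ULB from WG to WL. The median bin with a PCG start was itself higher than in NC by 0.18 to 0.25 in WG and by 0.24 to 0.36 in WL. All calls from NC were higher in WG or WL.

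CD14 held 6 of these 17 calls. Its index in RAD was 3.35 to 5.17 (median 4.52) in NC, 4.08 to 8.36 (median 5.61) in WG and 6.23 to 7.32 (median 6.54) in WL, so NC and WL did not overlap. In MAD it was 3.14 to 5.42 (median 4.58) in NC, 3.82 to 7.54 (median 6.11) in WG and 5.12 to 7.11 (median 6.63) in WL. The difference from NC to WG was 0.94 in GOM (adjusted p = 0.0234), 1.70 in MAD (adjusted p = 1.15e-05) and 1.35 in RAD (adjusted p = 8.64e-04), and from NC to WL 1.64 (adjusted p = 0.00535), 1.99 (adjusted p = 1.32e-05) and 2.21 (adjusted p = 6.51e-09). After quantile normalization of the index across samples, the value of GOM from NC to WG was 0.74 (adjusted p = 0.0809) and the other 5 calls were kept. Expression of CD14 was called in only 1 of these 6 comparisons, MAD from NC to WG.

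LY96 rose in index from NC to WG in RAD by 0.97 (adjusted p = 4.89e-05) and from NC to WL in MAD by 0.87 (adjusted p = 0.00382) and in RAD by 1.09 (adjusted p = 6.19e-06). In RAD its index was 1.73 to 2.79 (median 2.50) in NC and 2.87 to 3.99 (median 3.52) in WL, with no overlap. TLR9 was called 5 times, with differences of 0.77 to 0.88, and TLR1 once, in GOM from NC to WL (0.85, adjusted p = 0.0464). The TLR1 call was lost without NC GOM replicate 1 (adjusted p = 0.0536), and the TLR9 call in RAD from NC to WL came to 0.67 without WL RAD replicate 7, below the threshold. After quantile normalization none of these 9 calls was kept: LY96 came to 0.73 and 0.72 in RAD and 0.49 in MAD, TLR9 to 0.37 to 0.54 and TLR1 to 0.42.

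**Figure D5:**
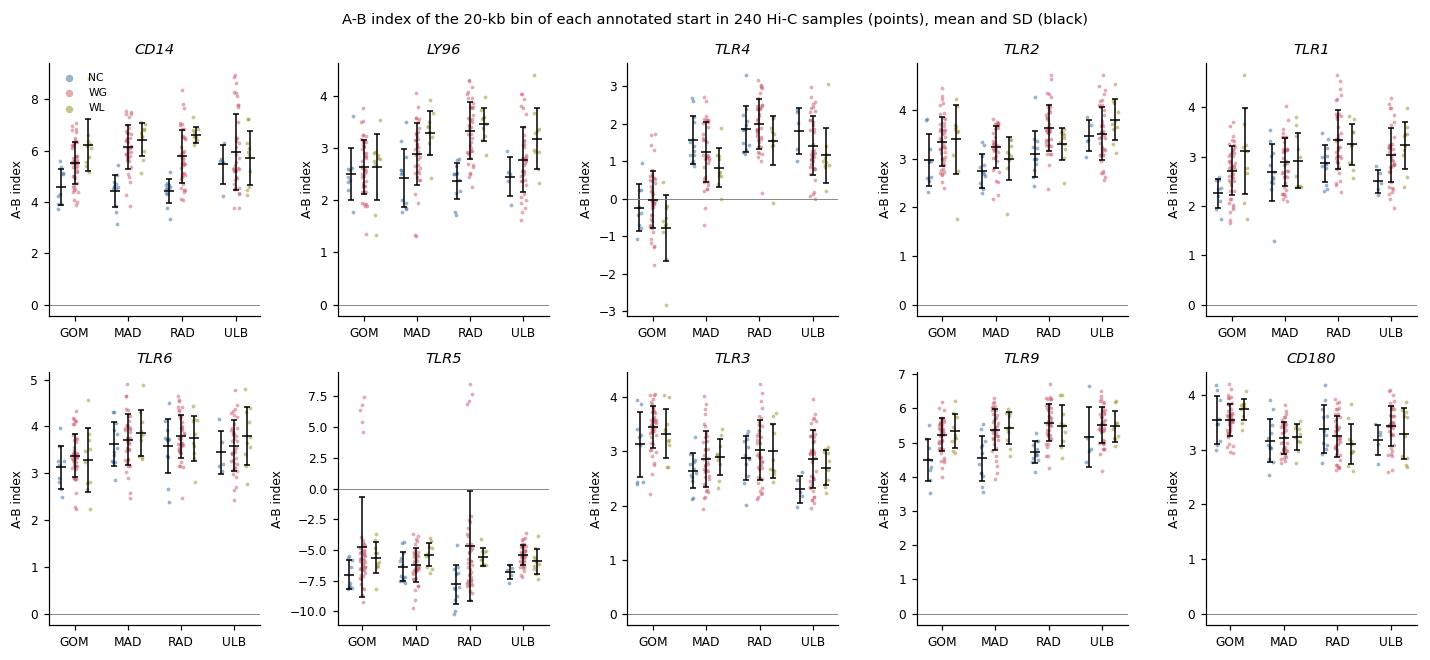
A-B index (no unit, linear axis, 1 panel per gene) of the start bin in each of 240 Hi-C samples by AT and diet, with group mean ± SD in black. The TLR4 panel crosses 0 in GOM, with 3 of 9 NC, 21 of 46 WG and 1 of 10 WL samples positive, and the TLR5 panel shows 9 samples above 0.

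The index of TLR5 on chromosome 10 could not be read as that of the other genes. Across bins of a chromosome, the index correlated with the presence of a PCG start with a median r of 0.175 to 0.363 over samples on the other 17 autosomes but only 0.0364 on chromosome 10, where it was negative in 84 of 240 samples (r across bins, which are not independent). The mean index of chromosome 10 was negative before 25 Mb in 223 samples and positive after it in 219, a split chosen after the values were seen. In the 9 samples with a positive TLR5 bin (5 WG GOM and 4 WG RAD), the profile of the chromosome correlated with the median profile with r from -0.915 to -0.695. The 3 index calls of TLR5 that the counts above include are therefore not described, and without TLR5 the counts were 6 from NC to WG, 9 from NC to WL, 6 between ATs in NC and 4 in WG.

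H3K27ac marks active promoters and enhancers. Each of the 18 deposited tables of H3K27ac regions came from the samples of a group or subgroup, pooled where there were several. The NC MAD table and the WG RAD table with 79.7 at TLR4 each came from a single H3K27ac sample. Each of the 10 genes had a region within 10 kb in 16 to 18 tables, against 65.2 to 85.6% of autosomal PCGs per table. The gene start itself lay in a region in 17 tables for TLR2 and TLR5, 16 for CD14, 15 for TLR9, 14 for TLR3 and CD180, 13 for LY96 and 12 for TLR4, but in 6 for TLR1 and 4 for TLR6 (23.8 to 71.4% of autosomal PCGs per table). The region at TLR4 in NC had a signal less input per kb of 76.3 (GOM), 198 (MAD), 155 (RAD) and 111 (ULB). In WL it had 110 (GOM), 227 (MAD), 255 (RAD) and 194 (ULB). In NC and WL the GOM table had the lowest value of the 4. In WG this order did not hold, since regions had 51.7 to 101 in the 3 GOM tables, 65.1, 98.8 and 173 in those of MAD, 79.7 and 177 in those of RAD, and 78.2 and 215 in those of ULB. The tables have no replicates, and no test was made.

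Other genes of the pathway were read from lists chosen by role. From NC to WG, the partners and carriers of the receptors had 7 of 28 gene-by-AT tests called higher and none lower. Over all PCGs, 6.37% of such tests were called higher and 7.89% lower from NC to WG, 11.6% and 16.2% from NC to WL, and 4.08% and 5.24% from WG to WL, and the counts of the lists stand against these shares. These were the endosomal carrier UNC93B1 in GOM (log2 0.61), MAD (0.59) and RAD (0.64), the single-stranded RNA receptor TLR8 in MAD (1.54) and RAD (1.36), and LY86, the partner of CD180, in MAD (0.68) and RAD (0.61). In the comparison of NC and WL, 7 of 29 tests of this list were called higher and none lower, among them LY86 in MAD (log2 1.58, adjusted p = 2.01e-04) and ULB (log2 0.88, adjusted p = 0.0262), and from WG to WL 3 of 29 were higher and none lower.

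Of the adaptors and kinases, 4 of 68 tests were called higher from NC to WG and none lower, a share of higher calls no larger than that over all PCGs. These were IKBKE, a kinase of the interferon branch, in MAD (log2 1.09) and RAD (log2 0.92), and IRAK2 in RAD (log2 0.71) and ULB (log2 0.87). From NC to WL 4 of 68 were higher and 9 lower, both below the shares over all PCGs. TAB2 and TAB3, which dock the kinase TAK1, fell together in GOM (log2 -0.96 and -1.04), MAD (-0.72 and -0.89) and RAD (-0.60 and -0.76), TICAM1, which encodes TRIF, fell in GOM (log2 -0.71) and RAD (log2 -0.71), and MYD88 fell in RAD (log2 -0.66, adjusted p = 0.00303). From WG to WL 1 was higher and 1 lower of 68.

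Of the transcription factors, 4 of 32 tests were higher and 1 lower from NC to WG, 7 higher and 3 lower from NC to WL, and 1 higher and 0 lower from WG to WL. IRF5, which acts downstream of MyD88, rose from NC to WG in MAD (log2 1.01) and RAD (log2 0.81), while IRF3 rose from NC to WL in all 4 ATs (log2 0.64 to 0.70). The NF-kB subunit RELA fell from NC to WL in GOM (log2 -0.90) and RAD (log2 -0.80). Of the inhibitors, 3 of 28 tests were higher from NC to WG, 5 from NC to WL and 2 from WG to WL, with none lower. SIGIRR, an inhibitory member of the receptor superfamily, made up all 3 of the first, and rose from NC to WL in GOM (log2 1.25), MAD (1.63), RAD (1.01) and ULB (0.78).

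Of the target genes, 8 of 20 tests were higher and 1 lower from NC to WG. IL6 rose in MAD (log2 1.36, adjusted p = 0.00332) and RAD (log2 1.56, adjusted p = 2.40e-04), the chemokine genes CXCL8 (log2 1.15 and 0.96) and CCL2 (1.20 and 0.73) rose in the same ATs, as did IL10 (1.05 and 0.63), and PTGS2 fell in GOM (log2 -0.90). From NC to WL 5 of 20 were higher and none lower, and from WG to WL 2 were higher and 1, IL6 in MAD (log2 -0.89), lower. TNF, IL1B, CD36, TICAM2 and ADGRE1 were on the lists but not analysed here.

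The genes most like each member were sought among 15068 PCGs by Spearman correlation of log2(TPM + 1) over all RNA-seq samples after removing the mean of each group. They are a description, since samples share depth and PCG share. For TLR4 they were NCKAP1L (rho 0.730), IFI30 (0.728) and BTK (0.720), for TLR2 MARCHF1 (0.716), ADORA3 (0.704) and CYTIP (0.689), and for TLR1 GPR34 (0.756), FUT8 (0.661) and TMEM273 (0.657). TLR6 was most like CD84 (0.668), ADAP2 (0.643) and KMO (0.633), and CD180 most like TLR8 (0.757), LCP1 (0.756) and RGS10 (0.745). The first 3 of LY96, MOB1A, SRGN and LAMTOR3, all had a rho of 0.828, and those of CD14 were EFHD2 (0.787), LAMP1 (0.75) and FURIN (0.746). TLR3 was most like SMC4 (0.766), BANK1 (0.760) and SHTN1 (0.756), and TLR5 most like SEMA6A (0.744), EPM2AIP1 (0.736) and EIF2AK4 (0.732). Among the members themselves, TLR4 varied with LY96 (0.586) and TLR2 (0.541), while CD14 and LY96 had a rho of -0.063 and TLR5 and LY96 one of -0.422. Of 3 macrophage markers set against TLR3, CD68 had a rho of 0.642 and CSF1R one of 0.530, while CD163 had -0.106. The members differed in this. In the order CD68, CSF1R and CD163, CD14 had 0.605, 0.724 and 0.263, TLR2 -0.032, 0.112 and 0.595, and LY96 -0.362, -0.358 and 0.324.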

How the data were processed

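RNA-seq, Hi-C and H3K27ac ChIP-seq files of 599 labelled samples were deposited, and groups were taken from the labels. The authors mapped stranded RNA-seq with kallisto 0.43.0 to Sscrofa11.1 transcripts and summed it by gene. The deposited table holds their estimated counts, with 17.8% of PCG values at 0, and rounding to whole numbers preceded the tests. TPM values were used as the authors deposited them. For the A-B index, a score without unit, the authors used balanced Hi-C contacts normalized between samples, in 20-kb bins of 18 autosomes. The tables of H3K27ac regions hold the authors' signal in ChIP and input reads, with the rank given there, after alignment with BWA 0.7.15 and SAMtools 1.3.1 per the labels and region calling with SICER. In each of the count and index tables, 9 columns matched no label and were not used.

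The 10 genes, all named, and the lists of pathway and marker genes were chosen with earlier results of these data known. Of the lists, counts are given for all, and values for genes with the largest called changes. Symbols were available for 14821 of 21280 PCGs. Expression was tested with edgeR 4.0.16 (TMM, quasi-likelihood) in R 4.3.3, and the index with limma 3.58.1, each over all genes or bins with Benjamini-Hochberg adjustment within a comparison, 2-sided. DESeq2 1.42.0, edgeR's exact test, RLE scaling, no filter, PCG share or library set as terms, high-share libraries only (PCG share of at least 88%), a replicate block, left-out samples, quantile normalization of the index, gene-bin means and a threshold of 0.5 were the alternatives. Labels do not state that a replicate number marks a pig, so pairing was checked by correlating deviations from group means. Every same-number pair was above 0.1 in NC for GOM with ULB (median r 0.128, and 0.124 for the index), in WG for ULB with MAD (0.617) and with RAD (0.556), and in WL for MAD with RAD (0.385). The other AT pairs of WG had medians of 0.581 to 0.637 in expression, with 35 of 36, 37 of 39, 37 of 38 and 30 of 31 pairs above 0.1, so same-number samples were correlated there too. Samples of 1 pig in several ATs are thus not independent, and p-values measure the spread between the sampled tissues. Promoters and gene starts are from RefSeq for Sscrofa11.1. The promoter of 1 of the 10 genes is not reported here. Scripts were tested on simulated data. Files give no contact counts, so the depth behind the index is unknown here.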

Additional observations from a re-analysis of the deposited data

Results flagged for a closer look

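In groups of 4 to 10 samples, a sample stood far from the rest of its group (Dixon's 95% limit) in 11 of 120 sets of TPM or index values, and chance gives about 1 in 20. In TPM these were TLR2 in WL MAD (highest sample 31.6) and WL RAD (highest 38.9), both replicate 10, TLR3 in NC ULB (highest 21.7), TLR4 in WL ULB (lowest 24.7), TLR6 in WL GOM (highest 13.5) and CD180 in WL RAD (highest 7.03). In the A-B index they were TLR2 in WL MAD (lowest 1.86, again replicate 10), TLR4 in WL RAD (lowest -0.13) and WL ULB (highest 3.05), CD14 in WL GOM (highest 8.83, replicate 9) and LY96 in NC GOM (highest 3.62). The change of expression from NC to WG differed between ATs for TLR2 (adjusted p = 0.0481) and CD180 (adjusted p = 0.0479), 2 of 9 such tests in edgeR.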

How the results depend on the processing

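No value changed sign. Of 42 expression calls, DESeq2 kept 41, edgeR's exact test 42, RLE scaling and no filter 40 each, PCG share as a covariate 31, library set as a term 25 and high-share libraries only 15, though with fewer samples. Of 34 index calls, gene-bin means kept 27 and quantile normalization 20.

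Counts of expression calls moved as follows. From NC to WG (6) there were 10 with PCG share as a covariate, and from WG to WL (0) there was 1 with library set as a term and 1 with no filter. From NC to WL (11) high-share libraries gave 6. Between ATs, high-share libraries gave 3 in NC (14) and 0 in WL (4), and library set as a term gave 9 and 1. Differences of the change from NC to WG between ATs (2) came to 0 with high-share libraries, 1 with library set as a term and 1 with no filter. Counts of index calls from NC to WG (7) were 4 for gene-bin means and 2 after quantile normalization, which gave 2 from WG to WL (1) and 3 between ATs of WG (5). A threshold of 0.5 gave 12 in WG and 9 in WL (5). The cause was not tested.

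Leaving out 1 NC ULB sample at a time gave 6 expression calls from NC to WG, 11 from NC to WL, 12 to 13 between ATs of NC and 0 to 2 differences between ATs, and 6 to 7, 10 to 11 and 4 to 6 index calls. Without WL GOM replicate 9, index calls from WG to WL were 0. Leaving out WG GOM replicate 35, and 8 samples far from their group, was chosen after seeing the data. The first left each count as it was. The others gave 0 to 1 expression calls from WG to WL (TLR1 in MAD without WL MAD replicate 10, CD180 in RAD without WL RAD replicate 6), 10 to 12 from NC to WL and 4 to 5 between ATs of WL, and 9 to 11 index calls from NC to WL, 5 between ATs of NC and 4 to 6 of WL.

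With a replicate block, expression calls from NC to WG were 0 and from WG to WL 1, and index calls from WG to WL 0. Between diets the numbers do not pair the samples, since same-number correlations had medians of -0.187 to 0.0854 in expression. Where they pair them, the block changed no call beyond those given. In the other 4 AT pairs of WG, where all but 1 or 2 same-number pairs were above 0.1, it changed none. In the remaining AT pairs of NC and WL, more calls changed besides that of TLR4. TLR5 lost its calls from GOM to MAD in NC (log2 -0.68, adjusted p = 0.0729) and from GOM to RAD in WL. CD14 gained one from MAD to RAD in NC (log2 0.60, adjusted p = 0.0282). The CD14 index lost its NC calls of ULB against MAD (adjusted p = 0.0816) and RAD (adjusted p = 0.139). It gained one from RAD to ULB in WL (-0.91, adjusted p = 0.0365).

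CD180 and TLR9 had the lowest depth of the 10 genes, with medians of 58 and 32 estimated counts per sample, and NC ULB was the smallest group, with 5 samples.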
